A study of Homo sapiens with 3 samples.

Results

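S100 proteins are small calcium-binding proteins of vertebrates with a pair of EF-hand helix-loop-helix motifs, and most of them form dimers. Calcium opens a hydrophobic surface in most of them, through which they bind partners such as annexins, ezrin and non-muscle myosin, and several are also released from cells and bind receptors at the cell surface. Many of the genes lie next to each other on chromosome 1, and S100P, first isolated from placenta and known from carcinomas of several organs, lies apart from them on chromosome 4. The 10 genes described here were S100P, S100A2, S100A4, S100A6, S100A9, S100A10, S100A11, S100A13, S100A14 and S100A16. They were chosen by gene symbol, and the choice of S100P and its relatives was made with results of these same arrays in view, so their differences are given as a description without a test. The 10 genes had 17 of the 47323 probes of the array and made up 10 of the 20 S100 genes that the annotation names, out of 20046 genes with a named probe.

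The cells were PLC-PRF-5, an established human hepatoma line, treated for 24 h with a sorafenib probe, with sorafenib, or with the solvent DMSO as the control. Sorafenib is an oral inhibitor of several kinases used against hepatocellular carcinoma, and the sorafenib probe is sorafenib to which a terminal alkyne was added for click chemistry, and the study's description of its probes also names a group that binds nearby protein under ultraviolet light. Their concentration was 10 μM by the labels of the samples and 50 μM by the protocol field, so the dose is uncertain but was the same for both compounds by either source. Each group was 1 Illumina beadchip array of total RNA, both compounds were set against the same DMSO array, and no spread between cultures could be measured.

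Intensities are given as background corrected and quantile normalized values of 1 probe, and differences as log2 of one array over another. Because probes bind with unequal strength, a level was compared between arrays and not between genes. The mean intensity after the authors' background subtraction was 164 with the sorafenib probe, 159 with sorafenib and 183 with DMSO. The share of probes above background, at a detection p-value under 0.01, was 32.8% with the sorafenib probe, 32.7% with sorafenib and 32.3% with DMSO. Of all genes, 10396 were above background on at least 1 array and 8750 on all 3 arrays. Of 10 genes listed as markers of hepatocytes, ALB, encoding albumin, alone was above background, at 49.6 with the sorafenib probe, 38.7 with sorafenib and 48.1 with DMSO, and the hepatoma markers AFP and GPC3 were not. All 5 simple epithelial genes listed were above background, with a summed intensity of 3530.5 with the sorafenib probe, 3601 with sorafenib and 3787 with DMSO.

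With the processing used for the values given here, S100P had the largest measured difference between treated and control cells among the 10 members. Its 1 probe gave an intensity of 285 with the sorafenib probe and 276 with sorafenib, against 102 with DMSO, and was above background on every array. The difference from DMSO was 1.49 on the log2 scale (2.81-fold) with the sorafenib probe and 1.44 (2.72-fold) with sorafenib. Both treated arrays were therefore high and the control array low, by a similar factor. Before normalization the background subtracted intensities were 259.7 with the sorafenib probe, 243.0 with sorafenib and 94.7 with DMSO. In the quantile normalized table deposited by the authors the intensities were 256 with the sorafenib probe, 247 with sorafenib and 81.0 with DMSO. In RNA from whole wells, a change in the number of cells that express a gene and a change of RNA per cell cannot be told apart.

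Among the 8750 genes above background on all 3 arrays, S100P ranked 6 from the top with the sorafenib probe and also 6 from the top with sorafenib, so that 0.0571% of the genes had a higher value in either comparison. With the sorafenib probe, 0.25% of the 10396 genes were higher than with DMSO by 2-fold or more, and 0.164% were lower by as much. With sorafenib these shares were 0.164% higher and 0.115% lower. S100P was the 1 member that passed 2-fold in either comparison, and no member was 2-fold lower. Since S100P was selected on these arrays, its place in the ranking describes the selection and is no independent support.

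**Figure D1:**
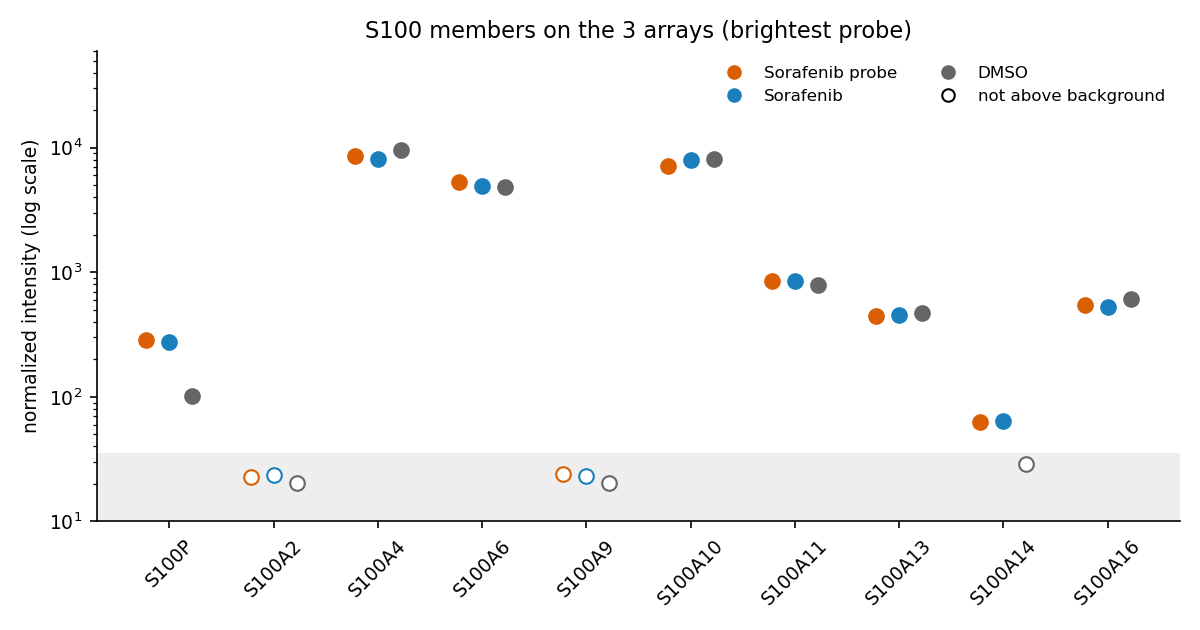
Normalized intensity (log axis) of the brightest probe of each of the 10 S100 members, with a point for each of the 3 arrays, open where it was not above background and with the range of such values shaded. The S100P points lie at 285 and 276 with the compounds and at 102 with DMSO, while the 3 points of S100A4, S100A6, S100A10, S100A11, S100A13 and S100A16 lie close together for each gene.

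The stretch of 250 bases just before the start of S100P is shown because S100P carried the main difference and its window holds the letters of a TATA box. It is RefSeq sequence of GRCh38.p14 on the plus strand at chr4:6693628-6693877, printed up to the base before the transcript begins, and the capitals mark a match to TATAAA.
S100P: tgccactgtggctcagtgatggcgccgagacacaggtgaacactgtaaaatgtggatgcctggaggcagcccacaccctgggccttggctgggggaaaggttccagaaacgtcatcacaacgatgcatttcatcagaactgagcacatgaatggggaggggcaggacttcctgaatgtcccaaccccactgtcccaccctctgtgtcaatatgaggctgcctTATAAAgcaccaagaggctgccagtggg
The TATAAA match ended 22 bases before the start. Such a match stood on either strand in 10.7% of the 35116 promoter windows of this length, and in 4 of the 14 windows of the 10 members, 1 each of S100P, S100A4, S100A9 and S100A13, which has 3 windows. No match was found in the S100P window to the GC box GGGCGG (42.6% of all windows), the CCAAT box (32.0%), the AP-1 site TGANTCA (6.57%) or the cyclic AMP response element TGACGTCA (1.65%). The same held for TTGCATCA (0.772%), a composite site of C/EBP and ATF factors, the STAT site TTCNNNGAA (6.57%) and the TEAD site GGAATG (11.9%), each searched on both strands. Each motif was searched by these exact letters, so close variants, also of the C/EBP and ATF site, were not counted. A match or its absence describes letters only and says nothing of which factor was bound.

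The genes nearest to S100P in their pattern were found by Euclidean distance over the 2 log2 differences from DMSO, among the 8750 genes, a measure that rests on 3 arrays and 1 shared control. They were PHGDH, the first enzyme of serine synthesis, at a distance of 0.0872, CBS, which makes cystathionine from homocysteine and serine, at 0.0882, NIBAN1 at 0.127, TRIB3, a pseudokinase induced in the integrated stress response, at 0.165, and NNMT, which methylates nicotinamide, at 0.237. PHGDH had intensities of 2542 with the sorafenib probe, 2648 with sorafenib and 959 with DMSO. The log2 differences of CBS were 1.41 with the sorafenib probe and 1.42 with sorafenib, and those of TRIB3 were 1.41 with the sorafenib probe and 1.30 with sorafenib. These genes were named for the size of their differences alone.

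**Figure D2:**
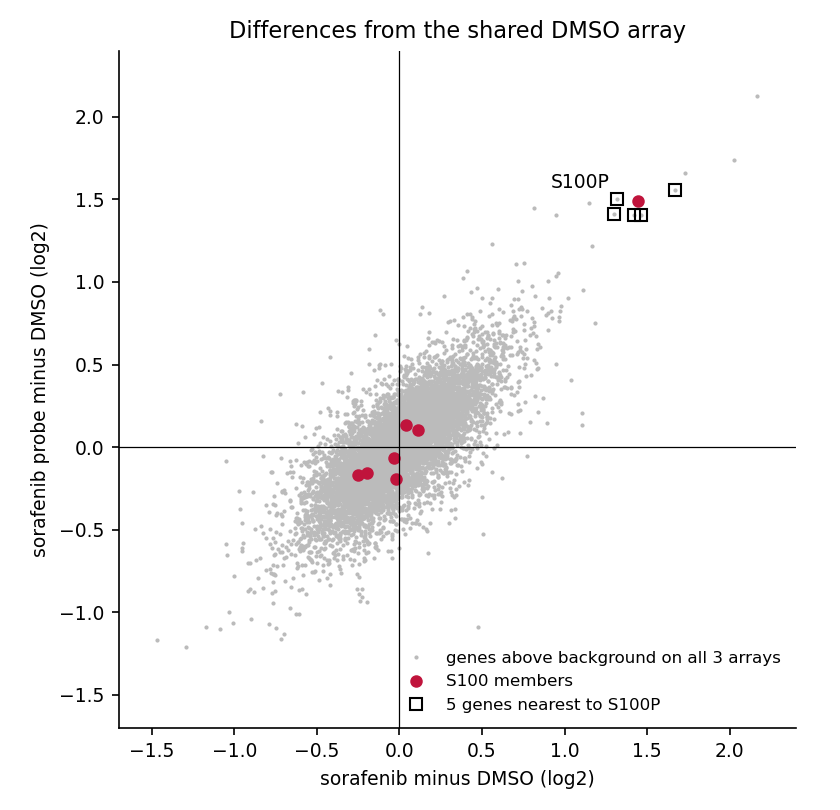
Log2 difference from DMSO with the sorafenib probe (vertical axis) and with sorafenib (horizontal axis) for the genes above background on all 3 arrays, with the S100 members in red and the 5 genes nearest to S100P as squares. S100P stands at 1.49 with the sorafenib probe and 1.44 with sorafenib, while the other marked members lie near 0, and both axes use the same DMSO array.

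S100A14, a member found mainly in epithelia whose EF-hand motifs have lost residues that hold calcium, was the other member past 1.5-fold with both compounds. Its 1 probe gave 62.6 with the sorafenib probe and 64.4 with sorafenib, against 28.8 with DMSO. The detection p-value was 0 on both treated arrays and 0.0455 with DMSO, so the probe was not well above background in the control cells. The measured difference was 1.12 with the sorafenib probe and 1.16 with sorafenib on the log2 scale. Set against the lowest intensity above background on the DMSO array, 34.8, these become bounds of at least 1.8-fold with the sorafenib probe and at least 1.85-fold with sorafenib. S100A14 therefore stood above background only in treated cells and passed 1.5-fold but not 2-fold by its bound. At 1.5-fold, 2 of the 8 members above background were higher with each compound and none was lower, and of all genes 2.31% were higher with the sorafenib probe and 2.15% with sorafenib. The member count is no independent result. S100P was chosen on these arrays, and S100A14 entered the 8 only through the treated arrays, where it was high.

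The corresponding stretch before the start of S100A14 is shown for comparison with that of S100P. It is RefSeq sequence of GRCh38.p14 on the minus strand at chr1:153616326-153616575, and it has no capitals since none of the 8 motifs matched.
S100A14: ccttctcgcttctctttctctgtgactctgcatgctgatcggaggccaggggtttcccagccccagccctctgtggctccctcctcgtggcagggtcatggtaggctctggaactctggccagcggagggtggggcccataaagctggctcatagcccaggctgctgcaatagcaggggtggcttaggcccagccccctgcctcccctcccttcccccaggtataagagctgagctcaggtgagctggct
With no match in the S100A14 window, the windows of S100P and S100A14 could not share a motif, which says nothing of their likeness. Only the letters given were searched, so close variants of a motif were not counted.

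In the gene order of chromosome 1, S100A14 lies between S100A16 and S100A13. S100A16, a widely expressed member linked to fat cell formation, had 543 with the sorafenib probe and 529 with sorafenib, against 606 with DMSO. Its differences were -0.16 with the sorafenib probe and -0.20 with sorafenib. S100A13, which takes part in the release of FGF1 and IL1A without a signal peptide, had 6 probes, of which 3 were above background. Its brightest probe gave 448 with the sorafenib probe, 458 with sorafenib and 468 with DMSO, a difference of -0.06 with the sorafenib probe and -0.03 with sorafenib. The second probe differed from DMSO by -0.09 with the sorafenib probe and by 0.08 with sorafenib, and the dimmest of the 3 by -0.12 with the sorafenib probe and by -0.23 with sorafenib. The neighbours of S100A14 on both sides thus had values below those in DMSO cells by their brightest probes, by at most 1.15-fold.

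**Figure D3:**
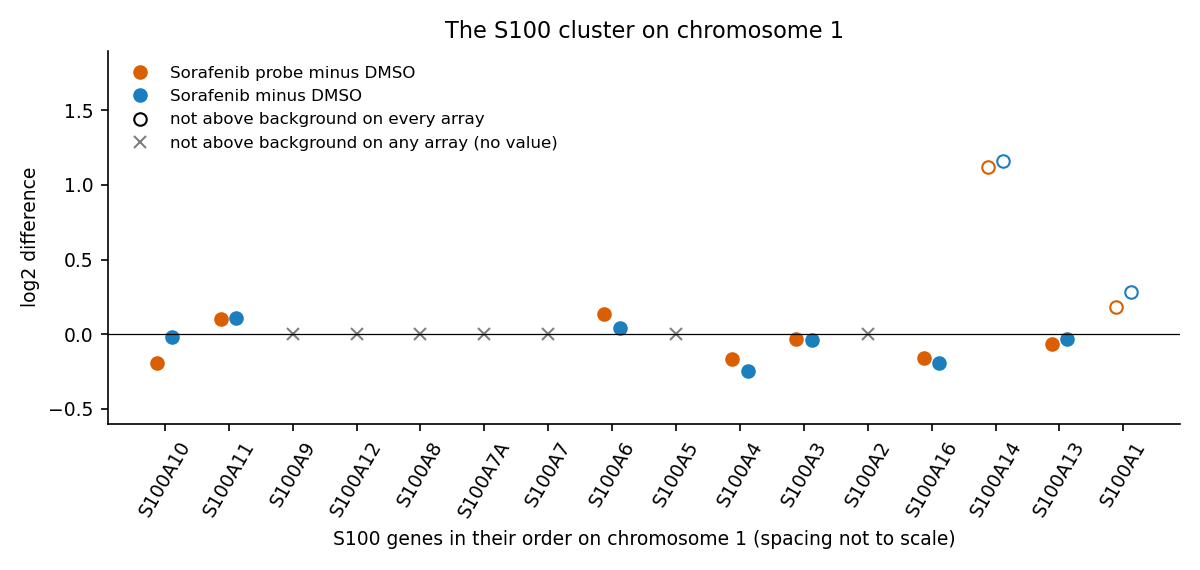
Log2 difference from DMSO of the S100 genes of chromosome 1 in their order along the chromosome, for the sorafenib probe and for sorafenib, with crosses for genes above background on no array. S100A14, whose DMSO value was not above background, lies at 1.12 and 1.16, between S100A16 and S100A13, which lie at -0.16 and -0.06 with the sorafenib probe and at -0.20 and -0.03 with sorafenib.

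The other members above background lay closer to DMSO. S100A4, also called metastasin, binds the heavy chain of non-muscle myosin and is known for its part in cell motility. Its 2 probes gave 8544 and 5421 with the sorafenib probe, 8078 and 5706 with sorafenib, and 9606 and 5758 with DMSO. The differences of the brighter probe were -0.17 with the sorafenib probe and -0.25 with sorafenib, and those of the other probe were -0.09 with the sorafenib probe and -0.01 with sorafenib. Both probes were therefore lower with either compound than with DMSO, by at most 1.19-fold.

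S100A10, or p11, keeps an open shape without calcium and binds annexin A2 at the membrane. Its brighter probe gave 7086 with the sorafenib probe and 7986 with sorafenib, against 8111 with DMSO, and its second probe gave 5412 with the sorafenib probe and 5606 with sorafenib, against 5968 with DMSO. The differences were -0.20 and -0.14 for these probes with the sorafenib probe, and -0.02 and -0.09 with sorafenib. S100A6, or calcyclin, binds the ubiquitin ligase adaptor CACYBP. It had 5271 with the sorafenib probe and 4939 with sorafenib, against 4799 with DMSO, a difference of 0.14 with the sorafenib probe and 0.04 with sorafenib. S100A11, which binds annexin A1, had 845 with the sorafenib probe and 848.5 with sorafenib, against 786 with DMSO, a difference of 0.10 with the sorafenib probe and 0.11 with sorafenib. S100A6 and S100A11 were thus the members other than S100P and S100A14 whose values were above DMSO with both compounds, by at most 1.1-fold, but without normalization between arrays S100A11 was below DMSO with both compounds and S100A6 with sorafenib, and under median scaling both were below it with sorafenib.

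Among the 8750 genes, the share with a higher difference than S100A6 was 29.2% with the sorafenib probe and 42.7% with sorafenib, and for S100A11 it was 33.7% and 32.9%. At the other end, 74.1% and 82.9% of the genes had a higher difference than S100A4, and 73.1% and 77.3% than S100A16. For S100A10 these shares were 77.3% and 52.7%, and for S100A13 59.9% and 54.1%. All 6 genes thus lay well within the range of the other genes. The median over the 8 members above background was 0.02 with the sorafenib probe and 0.01 with sorafenib, and over all genes it was 0.00 and -0.003.

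**Figure D4:**
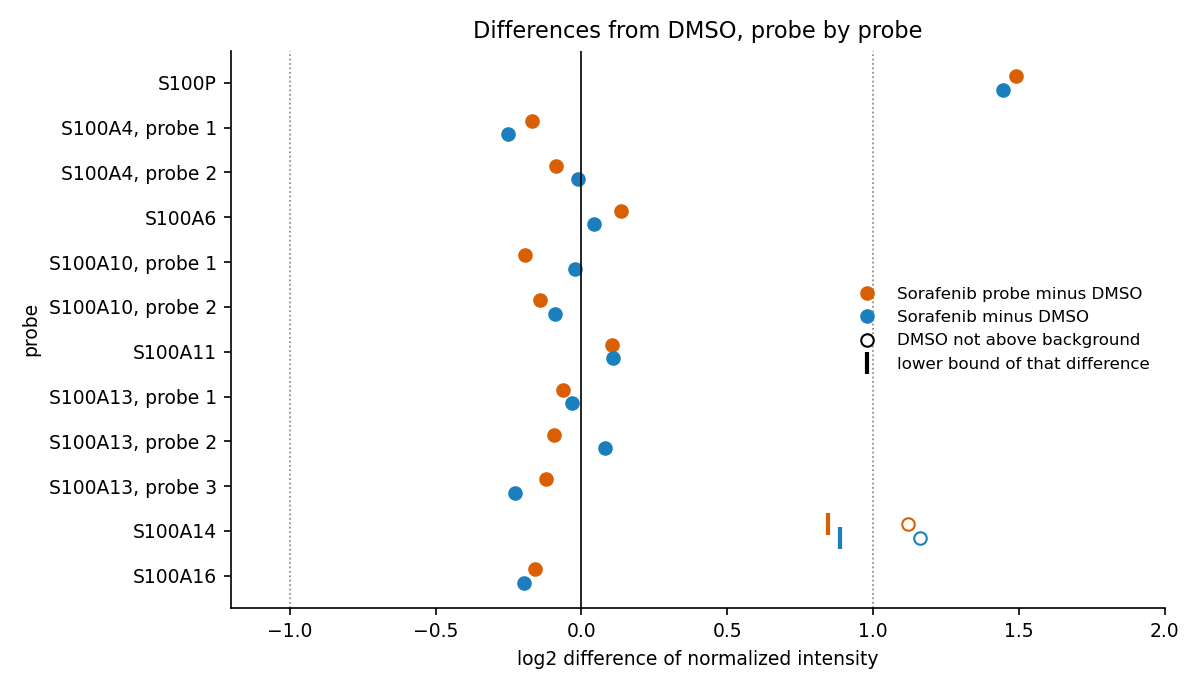
Log2 difference from DMSO of the 12 probes of the listed S100 genes detected on any array, for the sorafenib probe and sorafenib, with dotted lines at 2-fold. S100P lies past 2-fold with both compounds, the short bars of S100A14 give its lower bounds of 0.85 and 0.89, and the other 10 probes drawn lie between -0.25 and 0.14.

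S100A2 and S100A9 were not above background on any array. S100A2, a nuclear protein of basal epithelial cells, had background subtracted intensities of 2.49 with the sorafenib probe, 4.52 with sorafenib and -3.66 with DMSO, with a lowest detection p-value of 0.234. S100A9, the partner of S100A8 in the calprotectin of neutrophils and monocytes, had 4.81 with the sorafenib probe, 4.05 with sorafenib and -3.79 with DMSO. No fold is given for genes that all arrays measured at background.

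The sorafenib probe differs from sorafenib by added groups, the terminal alkyne among them, and both were applied for the same time and, by either source, at the same dose, so their readouts were compared directly. S100P differed by 0.05 on the log2 scale (1.03-fold) between the sorafenib probe and sorafenib. The middle 95% of the 2916 genes of similar intensity lay between -0.35 and 0.35 in this comparison, which is a spread over genes and not an error of S100P. S100A14 differed by -0.04, while the middle 95% of 2917 dim genes lay between -0.51 and 0.49. Between the compounds the other members differed by -0.17 for S100A10, 0.09 for S100A6, 0.08 for S100A4, 0.04 for S100A16, -0.03 for S100A13 and -0.01 for S100A11. The middle 95% of the 2917 bright genes lay between -0.26 and 0.27, which held all 6 values. No member passed 2-fold between the compounds, and 0.0192% of all genes were higher by that factor with the sorafenib probe than with sorafenib and 0.0289% were lower. With 1 array for each compound, no interval of a member's own difference could be given, so close values do not show equal action.

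Of the other 10 S100 genes of the annotation, 8 were not above background on any array, among them S100A8, S100A12 and S100B. S100A3 had 819.5 with the sorafenib probe and 816 with sorafenib, against 840.0 with DMSO, a difference of -0.04 with either compound. S100A1, a regulator of calcium handling in muscle, was above background with sorafenib alone, with 33.3 with the sorafenib probe, 35.8 with sorafenib and 29.4 with DMSO. Its detection p-value was 0.0208 with the sorafenib probe, 0.00909 with sorafenib and 0.0377 with DMSO. Its value with sorafenib thus lay just past the detection limit and next to the values that missed it.

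The genes of known S100 partners, drawn up with earlier results of these arrays known, were compared by the brightest probe of each gene. Of 15 listed, 12 were above background on all 3 arrays, none passed 1.5-fold with either compound, and the median difference was -0.05 with the sorafenib probe and -0.03 with sorafenib. The 12 differences ran from -0.28 to 0.32 with the sorafenib probe and from -0.32 to 0.09 with sorafenib. ANXA2, the annexin that S100A10 binds, had 10895 with the sorafenib probe, 10895 with sorafenib and 11335 with DMSO by its brightest probe, a difference of -0.06 with either compound. Its other 2 probes differed by -0.11 and -0.35 with the sorafenib probe and by -0.10 and -0.49 with sorafenib. EZR, encoding ezrin, the membrane and actin linker that S100P binds, had 4552.5 with the sorafenib probe and 4965 with sorafenib, against 4703 with DMSO, a difference of -0.05 with the sorafenib probe and 0.08 with sorafenib. Its second probe differed by -0.12 with the sorafenib probe and 0.05 with sorafenib. ANXA1, bound by S100A11, differed by -0.04 with the sorafenib probe and -0.02 with sorafenib. By their brightest probes these partners of S100P, S100A10 and S100A11 differed from DMSO by at most 0.08 on the log2 scale, whereas the dimmest probe of ANXA2 lay 1.27-fold lower with the sorafenib probe and 1.4-fold lower with sorafenib.

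Of 10 genes of receptors and surface proteins, 5 were above background, and by the brightest probe of each gene none passed 1.5-fold with either compound. AGER, encoding the receptor RAGE to which secreted S100P binds, was not above background on any array, and neither was TLR4, a receptor of S100A8 and S100A9. ITGB1, an integrin chain, had 4965 with the sorafenib probe and 5204 with sorafenib, against 6554 with DMSO, a difference of -0.40 with the sorafenib probe and -0.33 with sorafenib. CD44, the hyaluronan receptor, had 2058 with the sorafenib probe and 2152.5 with sorafenib, against 2759 with DMSO, a difference of -0.42 with the sorafenib probe and -0.36 with sorafenib by its brightest probe. Its other 2 probes lay further below DMSO. The first had 261 with the sorafenib probe and 272 with sorafenib, against 437.5 with DMSO (1.68-fold lower with the sorafenib probe and 1.61-fold lower with sorafenib). The second had 47.3 with the sorafenib probe and 51.5 with sorafenib, against 76.5 with DMSO (1.62-fold lower with the sorafenib probe and 1.49-fold lower with sorafenib). CD44 thus passed 1.5-fold by both dimmer probes with the sorafenib probe and by the first of them with sorafenib. Its brightest probe did not pass with either compound. BSG, the surface protein basigin that binds S100A9, differed by 0.11 with each compound. Of the 3 ITGB1 probes above background, another lay at -0.38 with the sorafenib probe and -0.31 with sorafenib, and the dimmest at 0.14 with the sorafenib probe and 0.11 with sorafenib.

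Other genes of EF-hand proteins were set beside the S100 genes. Of 20 listed, 16 were above background and, by the brightest probe, none passed 1.5-fold with either compound, with a median difference of -0.01 with the sorafenib probe and 0.05 with sorafenib. The brightest were MYL6, CIB1 and CAPNS1. MYL6, a myosin light chain, differed by 0.11 with the sorafenib probe and 0.02 with sorafenib. Its second probe differed by 0.13 with the sorafenib probe and -0.09 with sorafenib. CIB1 differed by 0.17 with the sorafenib probe and 0.22 with sorafenib. CAPNS1, the small calpain subunit, differed by 0.17 with the sorafenib probe and 0.14 with sorafenib. Its second probe lay the other way, at -0.06 with the sorafenib probe and -0.22 with sorafenib. By the brightest probe, the 16 differences ran from -0.38 to 0.42 with the sorafenib probe and from -0.30 to 0.35 with sorafenib. All lay below the 1.49 and 1.44 of S100P, which was chosen on these arrays, so the contrast is no independent result.

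By the brightest probe of each gene, marker genes of the line's epithelial type and of other cell types moved in both directions beside S100P. Of the 5 simple epithelial genes, 1 lay above DMSO and 4 below it with the sorafenib probe, and 2 above and 3 below with sorafenib. CDH1, encoding the epithelial cadherin, had 105 with the sorafenib probe and 88.4 with sorafenib, against 67.6 with DMSO, a difference of 0.64 (1.56-fold) with the sorafenib probe and 0.39 (1.31-fold) with sorafenib. KRT19, a keratin of simple epithelia, lay the other way, at -0.48 with the sorafenib probe and -0.40 with sorafenib, as did KRT8, at -0.10 with either compound, and EPCAM, at -0.13 with the sorafenib probe and -0.05 with sorafenib. KRT18 lay at -0.03 with the sorafenib probe but above DMSO, at 0.23, with sorafenib. A dimmer KRT18 probe, above background on every array, lay above DMSO with both, at 0.25 with the sorafenib probe and 0.38 with sorafenib. Of 7 leukocyte and myeloid genes, 4 were above background on at least 1 array, with a summed intensity of 742 with the sorafenib probe, 801 with sorafenib and 795 with DMSO. Of these 4, 2 lay above DMSO and 2 below it with the sorafenib probe, and 1 above and 3 below with sorafenib. LYZ was above background with the sorafenib probe alone and ITGAM with DMSO alone, so their directions rest partly or wholly on background values. CD14 encodes a monocyte surface protein that is also made by liver cells. It had 173 with the sorafenib probe and 198 with sorafenib, against 117 with DMSO (1.48-fold with the sorafenib probe and 1.68-fold with sorafenib). These values are from 1 of its 2 probes, and the other was not above background on any array. PTPRC, the defining leukocyte gene, was not above background on any array. CD68, of macrophage lysosomes, differed by -0.26 with the sorafenib probe and -0.17 with sorafenib, and ITGAM, above background with DMSO alone, had 24.4 with the sorafenib probe and 30.0 with sorafenib, against 36.6 with DMSO. None of 3 endothelial genes was above background. Of 5 fibroblast and stellate cell genes, 2 were above background on at least 1 array, with a summed intensity of 228 with the sorafenib probe, 202 with sorafenib and 300.0 with DMSO. Among them ACTA2, the smooth muscle actin of activated stellate cells, had 191 with the sorafenib probe and 178 with sorafenib, against 275 with DMSO, a difference of -0.53 with the sorafenib probe and -0.63 with sorafenib. The other, COL1A1, was above background with the sorafenib probe alone, at 36.5, against 24.0 with sorafenib and 24.9 with DMSO. The part of these marker genes in the S100P and S100A14 values was not tested.

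**Figure D5:**
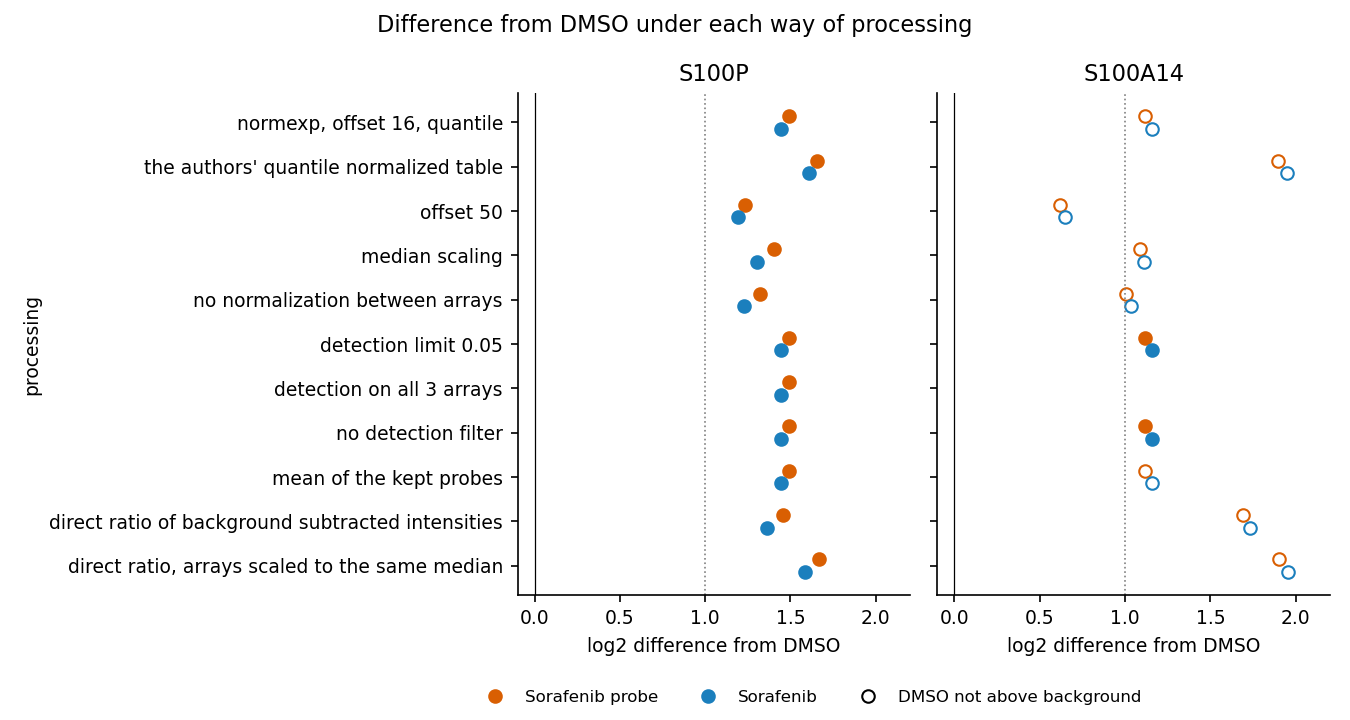
Log2 difference from DMSO of S100P and S100A14 under each way of processing the intensities, for the sorafenib probe and sorafenib, with open points where DMSO was not above background at the limit in use and a dotted line at 2-fold. S100P lies between 1.19 and 1.67 in every row, while the measured value of S100A14 lies between 0.62 and 1.96.

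The size of both differences depended on the processing, and their direction did not under any alternative run. Between the smallest and largest values, S100P was 2.29-fold to 3.17-fold higher in treated cells. S100A14 was at least 2.45-fold higher with the sorafenib probe and at least 2.54-fold higher with sorafenib in the authors' quantile normalized table, which adds no offset, and so passed 2-fold there. A larger offset of 50 gave bounds of 1.4-fold with the sorafenib probe and 1.43-fold with sorafenib.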

How the data were processed

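RNA of PLC-PRF-5 cells was measured on 3 Illumina beadchip arrays, 1 for each group. The authors deposited intensity values that are quantile normalized with a floor of 1, with a detection p-value for each probe in steps of 1 in 770, and a table of background subtracted intensity values that were not normalized between arrays. The scanner software was not given in the sources used. The second table was the starting point. Its background was modelled with limma's normexp, which takes the negative controls from the detection p-values, an offset of 16 was added, and the arrays were quantile normalized and converted to log2 (limma 3.58.1, R 4.3.3; later steps in Python 3.11.15 with pandas 2.3.3 and numpy 2.4.6). A probe was kept if its detection p-value was under 0.01 on any array, and a gene was represented by its brightest kept probe. Names came from the platform annotation. It gave 1 symbol for 30113 probes, several for 8 and no entry for 17202, and 99.9% of the probes with 1 symbol matched RefSeq's GRCh38.p14 table. Where only 1 of the arrays compared was above background, the other took its own value or the lowest one above background on that array, whichever was higher, and the fold was given as a bound.

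With 1 array per group no test between groups was possible, so differences were counted at 2-fold, and the number of arrays limits the precision. The S100 genes and the lists of partners, receptors, EF-hand genes and cell markers were chosen with earlier results of these data known. All S100 members were named, and from the other lists those past 1.5-fold in any comparison and up to 3 of the brightest, and the 5 genes nearest to S100P. Listed genes without a probe in the tables used were not analysed here. The normalization and the 2-fold count were tested on simulated data with larger changes than those of S100P. The detection filter, the choice of probe and the bounds were not tested in this way. Alternatives were the authors' quantile normalized table, an offset of 50, median scaling, no normalization, other detection limits, the mean of the kept probes, and 1.5-fold and 3-fold limits, and direct ratios of background subtracted intensities were added after the data had been seen.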

Additional observations from a re-analysis of the deposited data

How the results depend on the processing

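Over 255 values recomputed under alternatives for these genes, 0 turned from a called difference to the opposite sign, 218 stayed within their tolerance and 37 moved. A turn of sign was counted only for differences past 2-fold, which were those of S100P from DMSO. Some alternatives, such as another detection limit, could not change the value of a gene with 1 probe. The counts therefore overstate how stable the values were. The tolerance of a single gene was the SD of the difference between the compounds over genes of similar intensity. The number of members past 2-fold was 2 with either compound in the authors' quantile normalized table, at a detection limit of 0.05, without a detection filter and at 1.5-fold, where S100A14 was added, and 0 at 3-fold. For S100P, the difference with the sorafenib probe was 1.24 with an offset of 50 and 1.67 as a direct ratio after scaling the arrays. With sorafenib it was 1.19 with an offset of 50 and 1.23 without normalization. The median of the members without normalization was -0.15 with the sorafenib probe and -0.20 with sorafenib, and with median scaling -0.12 with sorafenib, where the medians of all genes were -0.16, -0.19 and -0.11 in the same comparisons. The medians of the members thus moved with those of all genes. S100A11 was at -0.06 with the sorafenib probe and -0.11 with sorafenib without normalization, and S100A6 at -0.17 with sorafenib. Without normalization 17 genes were higher and 34 lower past 2-fold with the sorafenib probe and 11 and 40 with sorafenib, against 26 and 17, and 17 and 12, with it. With median scaling these counts were 21 and 20, and 14 and 23. With the authors' quantile normalized values 90 were higher and 71 lower with the sorafenib probe and 83 and 65 with sorafenib, and with an offset of 50, which shrinks differences of dim genes, 10 and 2 with either compound. No paired analysis was possible because each group had 1 array. Dim genes such as S100A14 are limited by signal over background, and with 1 array per group no replicate could be left out.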

Other observations

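S100PBP encodes a nuclear protein that binds S100P. It was looked at after its values were seen, and its 3 probes differed. The first gave 207 with the sorafenib probe and 208 with sorafenib, against 149.5 with DMSO, a difference of 0.47 with the sorafenib probe and 0.48 with sorafenib. The second gave 100.6 with the sorafenib probe and 76.8 with sorafenib, against 83.0 with DMSO. The third gave 35.7 with the sorafenib probe and 37.9 with sorafenib, against 40.2 with DMSO. Higher values in treated cells were thus seen with both compounds in 1 of the 3 probes.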
